A study of Mus musculus with 2 samples.

Results

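The cells described here are the Xcr1 dendritic cells of NOD mouse islets, 84 of the 8813 cells kept from 2 droplet libraries. They were chosen by a rule on UMIs (unique molecular identifiers, counted molecules of RNA). Kept cells had 200 or more genes, with mitochondrial UMIs at or below 20%. A member had under 2% islet hormone UMIs, no UMI of 9 T cell, B cell, macrophage and plasmacytoid genes, and at least 3 UMIs of the class II genes Cd74, H2-Aa and H2-Ab1. It also had at least 2 UMIs summed over 6 genes (Xcr1, Clec9a, Rab7b, Bcl2l14, Ly75 and Serpinb6b), above the sum of each of 2 other sets of 7 genes, led by Ptgs2 and Nlrp3 and by Il1r2 and Ifitm1. The rule uses measured values, so these genes describe the cells and support nothing about them. The same rule turned to the other sets gave the other dendritic cells used below, 423 in a Ptgs2 Nlrp3 group and 770 in an Il1r2 Ifitm1 group.

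All mice were of the NOD strain, which develops autoimmune diabetes, were 5 weeks old when the diets began and were fed for 5 weeks. One library came from mice fed HAMS, a high-amylose maize starch, and one from mice fed HAMSAB, the same starch carrying acetate and butyrate. How many mice each library pools is not stated in the labels. With 1 library per diet no test between the diets is possible, and every interval below is at the 95% level and holds the counting error alone.

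Conventional type 1 dendritic cells (cDC1) take up dead cells and present their antigens on class I molecules to CD8 T cells. XCR1 is the receptor for a chemokine released by such T cells and natural killer cells, and CLEC9A binds actin exposed on dead cells. When dendritic cells mature they raise the migration receptor CCR7 and the actin-bundling protein fascin (Fscn1), and cDC1 are a known source of the p40 subunit of interleukin 12, encoded by Il12b.

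The islet preparations held 4352 HAMS and 5022 HAMSAB barcodes, of which 4185 and 4628 were kept, with medians of 704 and 705 UMIs. After the hormone step 1787 HAMS and 3204 HAMSAB cells were left. The libraries thus differed in their share of cells under the hormone limit before any dendritic gene was read. Whether the cells removed were endocrine or held free hormone RNA was not tested. The steps before the gene sums left 1003 and 1500 cells, and 26 HAMS and 58 HAMSAB cells were members. Their median depths were 1450 and 1212 UMIs, above those of all kept cells. The libraries shared 6 barcodes, none of them a member.

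The gate was narrow at its edge. A sum of exactly 2 UMIs was held by 34 of the 84 members, 16 held 3, and the highest sum was 9. One gate gene alone was found in 28 members, a pair in 35, and 3 or more in the other 21. Just outside, 34 cells held 1 UMI of the 6 genes and none of the other sets, 16 in HAMS and 18 in HAMSAB.

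A set of 6 cells stood apart from the rest, 1 in HAMS and 5 in HAMSAB. Each held at least 3 UMIs of a list of 15 ductal and acinar markers, a limit set after the cells had been inspected, and 5 of the 6 entered the gate on Serpinb6b alone. Their UMIs of Clu, a secreted chaperone abundant in duct cells, ranged from 10 to 298 per cell, and all 6 held UMIs of the duct transcription factor Sox9, of Spp1, of Krt8 and of Tm4sf4. They carried 99.7% of the members' Clu and 86.3% of their Egr1. None had a UMI of Il12b, Irf8, Ppt1 or Mpeg1, but other dendritic RNA was present. The cell that entered on Xcr1 and Rab7b, with 1 UMI of each, held 32 UMIs of the class II gate genes. It also held 5 UMIs of Cst3 and 3 of Dnase1l3. Others of the 6 held Cd24a, up to 8 UMIs in a cell. Whether any was a barcode of mixed cells was not tested. Results below are for all members, with the value for the other 78 beside named results whose sign or 2-fold call depends on these cells. Among the same gates, 2 of 133 HAMS and 16 of 290 HAMSAB Ptgs2 Nlrp3 cells met that limit. So did 2 of 339 HAMS and 3 of 431 HAMSAB Il1r2 Ifitm1 cells. Of all cells that passed every step before the gene sums, 4.39% in HAMS and 5.53% in HAMSAB met it, beside 3.85% and 8.62% of the members.

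Other cell types left little RNA in the members. Of 14 T and NK cell markers 3 were detected, with 1 UMI in HAMS and 2 in HAMSAB, and none of 11 neutrophil and mast cell markers was detected. Macrophage and monocyte markers gave 4 and 9 UMIs. B and plasma cell markers gave 2 and 47 UMIs, of which 1 HAMSAB cell held 34, including 15 of Igkc and 15 of Jchain. Plasmacytoid markers gave 5 and 19 UMIs, and beta cell markers 7 and 6. The part of these RNAs in the results was not tested.

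**Figure D1:**
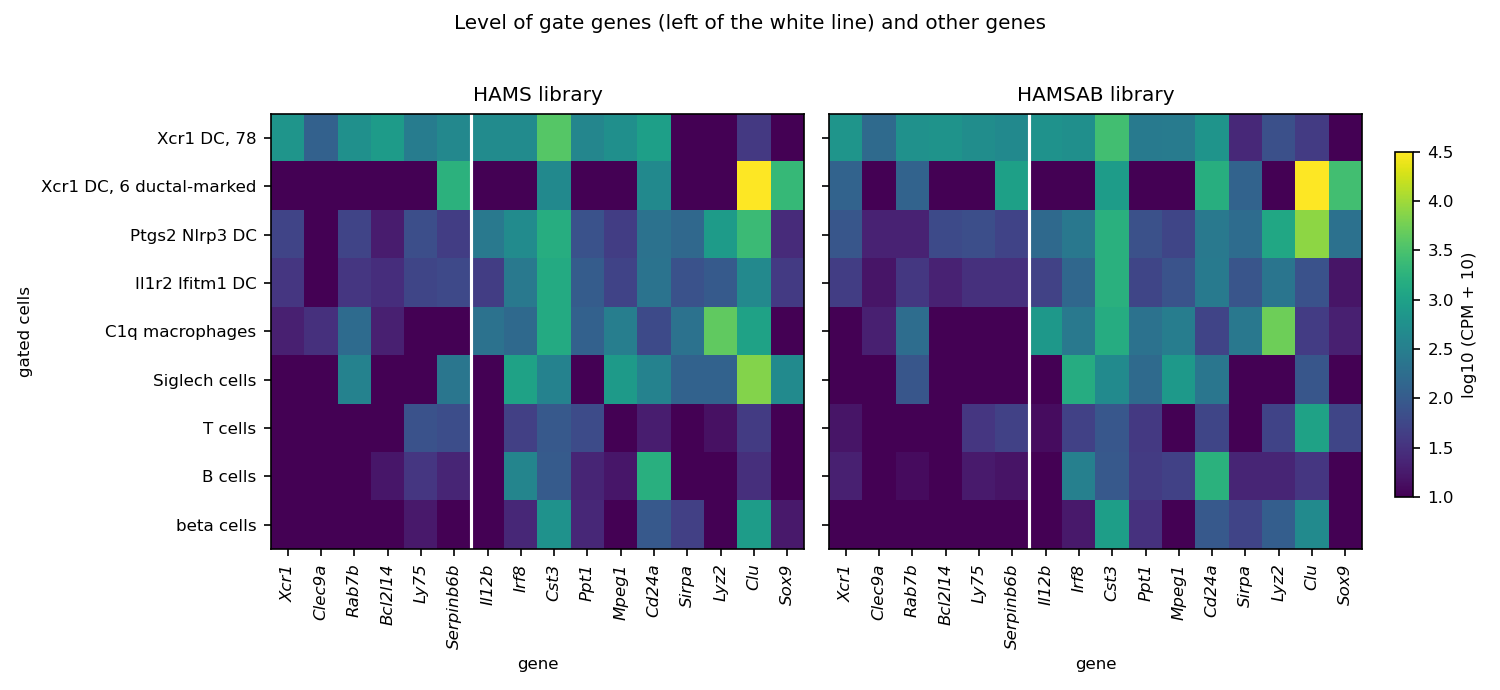
Level of each gene, as log10 of CPM, the UMIs scaled to 1000000 per class, plus 10, in the gated cells (rows) of the HAMS library (left panel) and the HAMSAB library (right panel). Gate genes stand left of the white line; Clu and Sox9 are high in the 6 ductal-marked members and Il12b, Ppt1 and Mpeg1 are seen in the other 78.

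The gate genes were sparse. Xcr1 had 23 UMIs in 9 of 26 HAMS members and 43 in 22 of 58 HAMSAB members, 610 and 589 CPM (UMIs divided by all UMIs of the class, times 1000000). Clec9a had 4 and 10 UMIs, in 3 and 7 cells. Rab7b, a small GTPase of lysosomal traffic, had 20 and 38 UMIs. These values describe how the cells were chosen. Bcl2l14, a BCL2 family member, had 29 and 40 UMIs, Ly75, the endocytic receptor DEC-205, 10 and 33, and the protease inhibitor Serpinb6b 19 and 37.

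The cDC1 name rests on part of the expected genes. Outside the gate, 28 of 34 cDC1 genes were detected, and 19 had at least 50 UMIs over the dendritic groups. Of these 19, 4 (Ppt1, Ifi205, Btla and Cd24a) were at least 2-fold higher than in the other dendritic cells in both libraries. Over all 2576 genes measured in this way, 40 (1.55%) were. No test sets this list apart from other genes. Il12b stood at 451 CPM (interval 263 to 722) in HAMS and 534 (380 to 730) in HAMSAB, against 101 and 85.1 in the other dendritic cells of the same libraries. Of those, the Ptgs2 Nlrp3 group held 252 and 148 CPM and the Il1r2 Ifitm1 group 33.5 and 38.6. In HAMS, Il12b was seen in 7.69% of members and 9.77% of Ptgs2 Nlrp3 cells. In HAMSAB these shares were 18.97% and 5.86%. The HAMS value rests on 1 cell with 16 of the 17 UMIs, and C1q macrophages held 197 and 728 CPM of Il12b. Ppt1, a lysosomal thioesterase enriched in cDC1, stood at 371 and 233 CPM against 85.1 and 52.8. Irf8, the factor that cDC1 need to develop, stood at 451 and 479 CPM, while the Ptgs2 Nlrp3 group held 479 in HAMS and 243 in HAMSAB. Batf3, the partner of that factor, had 0 UMIs in HAMS and 5 in HAMSAB. The RNA sensor Tlr3 had 0 and 3 UMIs, Itgae (CD103) 0 and 1, and Snx22 none in either library. Seen in 0 of 26 cells, a gene may still have a UMI in up to 11.5% of cells, taking 3 cells as the limit that a count of 0 allows. Pan-dendritic genes were present at low counts, with 4 and 2 UMIs of Zbtb46 and 2 and 9 of Flt3, and Cst3 was abundant, with 133 and 187 UMIs.

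Type 2 dendritic markers were low in the members. Of 24, 12 were detected, and the summed level was 1193 CPM in HAMS and 1356 in HAMSAB, against 3346 and 3962 in the Ptgs2 Nlrp3 group and 2542 and 3023 in the Il1r2 Ifitm1 group. Itgam, Cd209a, Clec10a and Mgl2 had no UMI in any member, and Sirpa, the surface receptor of type 2 cells, had 0 and 2. Of 11 measured, Tmem176b, Lyz2, the myeloid lysozyme, and Klf4 were at least 2-fold lower than in the other dendritic cells in both libraries (2 of them without the ductal-marked cells), where 8.27% of all genes were, Lyz2 by a log2 ratio of -3.53 in HAMSAB.

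Against the other dendritic cells, 40 of 2576 genes outside the gate with at least 50 UMIs were at least 2-fold higher in both libraries (1.55%) and 213 were at least 2-fold lower (8.27%). Without the ductal-marked cells on either side, 45 (1.84%) and 219 (8.94%) of 2449 were. This comparison carries no test, since the gate was drawn on these cells. Actb, the cytoskeletal actin, took 39.4% of the members' UMIs in HAMS and 37.2% in HAMSAB, against 24.98% to 28.95% in the other dendritic groups, and lowers every other gene's CPM. With Actb left out of the total the counts were 70 higher and 130 lower. Centred on the median gene, which tends to even the 2 sides, they were 101 and 109. The balance of higher and lower genes thus moved with the scaling, and other causes were not tested.

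The genes furthest above the other dendritic cells held known cDC1 genes and others. Atxn1, the ataxin 1 transcription regulator, was higher by 4.17 (interval 2.82 to 5.63) in HAMS and by 2.90 (2.05 to 3.74) in HAMSAB, as log2 ratios. Dnase1l3, a secreted DNase, stood at 6179 and 4834 CPM against 1540 and 1525, and C1q macrophages held 6963 and 6664. Ncoa7 was higher by 2.49 and 2.68. Mpeg1, the pore-forming protein perforin-2 of phagocytes, was higher by 3.70 and 2.09, and the adhesion protein gene Cd24a by 2.15 and 1.52. Il12b was higher by 2.16 and 2.65, and Ppt1 by 2.12 and 2.14. Atp2b1, P2ry14, Itgb1, Clasp1 and Tmem39a completed the set, with log2 ratios of 1.22 to 2.86. Clu, Thbs1 and Tm4sf4 also ranked here, with 99.7%, 100% and 100% of their UMIs in the 6 ductal-marked cells.

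Of the genes furthest below, H2-DMb2, a chain of the class II peptide editor, had 1 UMI in HAMS and 6 in HAMSAB, log2 ratios of -4.53 and -3.09. Il1b, the inflammatory cytokine, had 9 and 36 UMIs, ratios of -2.48 and -1.71. Mndal, Egr3, Kdm6b, B4galt1, Rabgef1 and B4galt5 were also lower in both libraries. S100a4 had 0 and 1 UMIs and Cfp, properdin, 0 and 3. Of 16 class II presentation genes measured 6 were at least 2-fold lower in both libraries (H2-DMb2, H2-Ob, Ciita, Ctss, Ctsh and Ctsz; 5 without the ductal-marked cells) and none higher, while 4 of 28 class I and cross-presentation genes were lower (H2-Q7, H2-T23, Sec61b and Cybb) and none higher, beside 8.27% lower over all genes. No test sets either list apart from other genes.

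The 78 members without ductal markers divided by which gate genes led. The division was drawn after the cells were seen. In 30 cells (8 HAMS, 22 HAMSAB) Xcr1, Clec9a and Rab7b together had more UMIs than Bcl2l14, Ly75 and Serpinb6b, in 37 (13 and 24) fewer, and in 11 (4 and 7) as many. Because a member needed only 2 UMIs over the 6 genes, few UMIs of one set go with more of the other by construction.

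**Figure D2:**
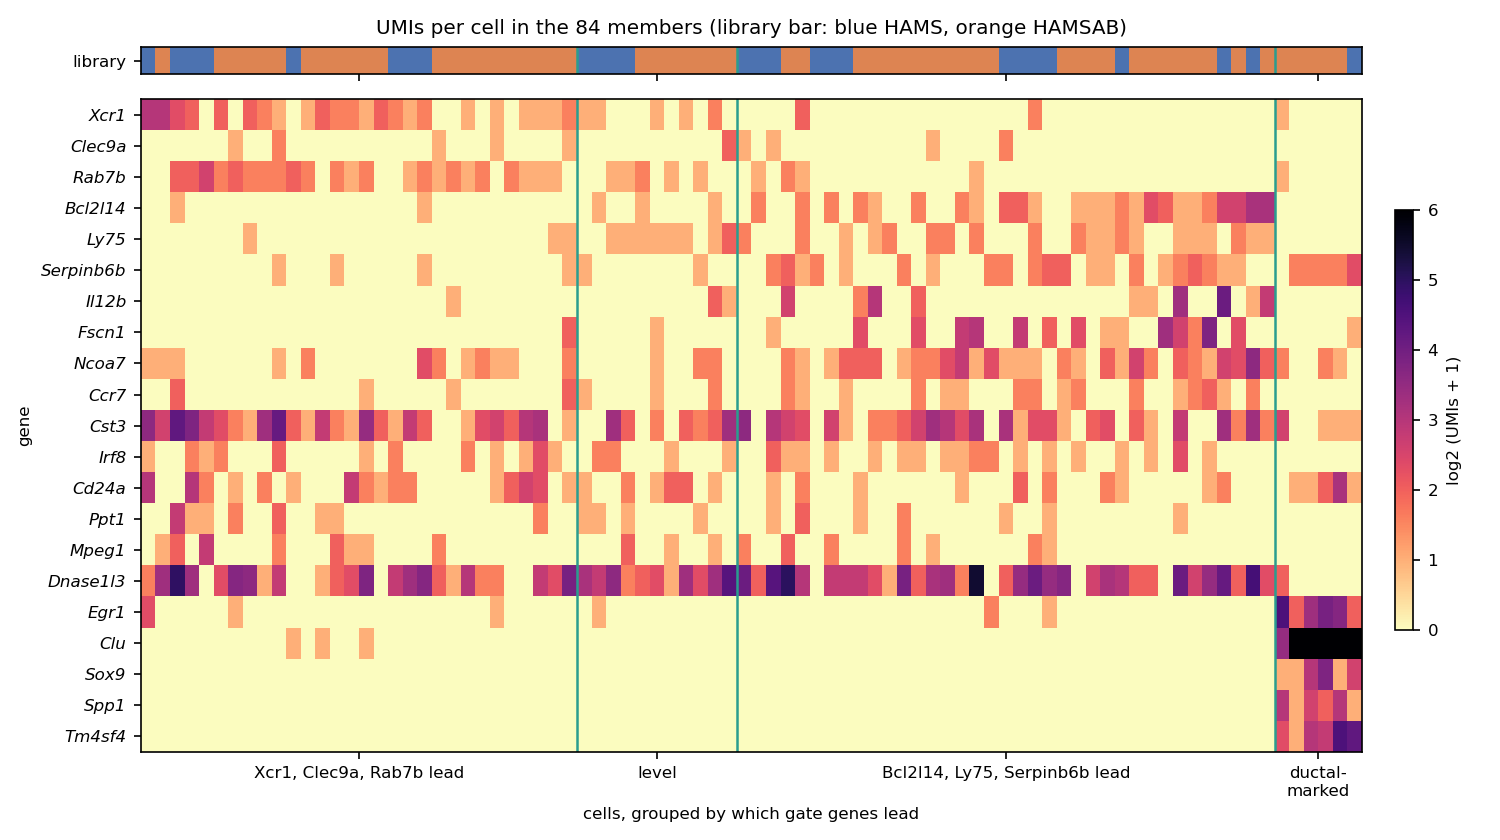
UMIs per cell, as log2 of UMIs plus 1, for 21 genes (rows) in the 84 members (columns), with the library of each cell above. Columns run from cells led by Xcr1, Clec9a and Rab7b (30), through cells with equal sums (11) and cells led by Bcl2l14, Ly75 and Serpinb6b (37), to the 6 ductal-marked cells, where Clu, Sox9, Spp1 and Tm4sf4 appear.

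Genes that were not used for this division also differed across it. Il12b was found in 10 of 37 Bcl2l14-led cells and in 1 of 30 Xcr1-led cells. In HAMS the Bcl2l14-led cells had 17 Il12b UMIs and the Xcr1-led cells 0, and in HAMSAB they had 34 and 1. The HAMS value rests on 1 cell, which held 16 of those 17 UMIs. Fscn1 was found in 15 and 1 cells, with 11 UMIs against 0 in HAMS and 59 against 3 in HAMSAB. Thinned to 500 UMIs per cell, Il12b was seen in 2 of 13 HAMS and 7 of 23 HAMSAB Bcl2l14-led cells, and in 0 of 8 and 1 of 20 Xcr1-led cells; 1 and 2 shallower HAMSAB cells were left out.

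Further genes lay on the Bcl2l14 side. Socs2, a cytokine signalling inhibitor, had 6 against 0 UMIs in HAMS and 23 against 2 in HAMSAB, and Bcl2l11, the death protein BIM, 11 against 1 and 8 against 0. Ccr7 had 8 against 3 UMIs and 18 against 5. Rgs1, Ccnd2, Mreg, Ncoa7 and Marcksl1 were higher on that side in both libraries. On the Xcr1 side, Cd24a had 21 against 9 UMIs in HAMS and 26 against 7 in HAMSAB, and the tetraspanin gene Cd53 22 against 7 and 23 against 7. Tubb5 had 115 against 85 and 268 against 110 UMIs and Ptma 40 against 39 and 160 against 67, from fewer cells on the Xcr1 side. Hmgb2 had 4 against 4 UMIs in HAMS and 26 against 5 in HAMSAB, Top2a, a topoisomerase, 3 against 2 and 14 against 1, and Mki67 5 against 5 in HAMS. Of 441 genes with at least 20 UMIs, 36 were at least 2-fold higher on the Bcl2l14 side and 47 on the Xcr1 side, of which 16 and 20 were so in both libraries. No test was made of this division.

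**Figure D3:**
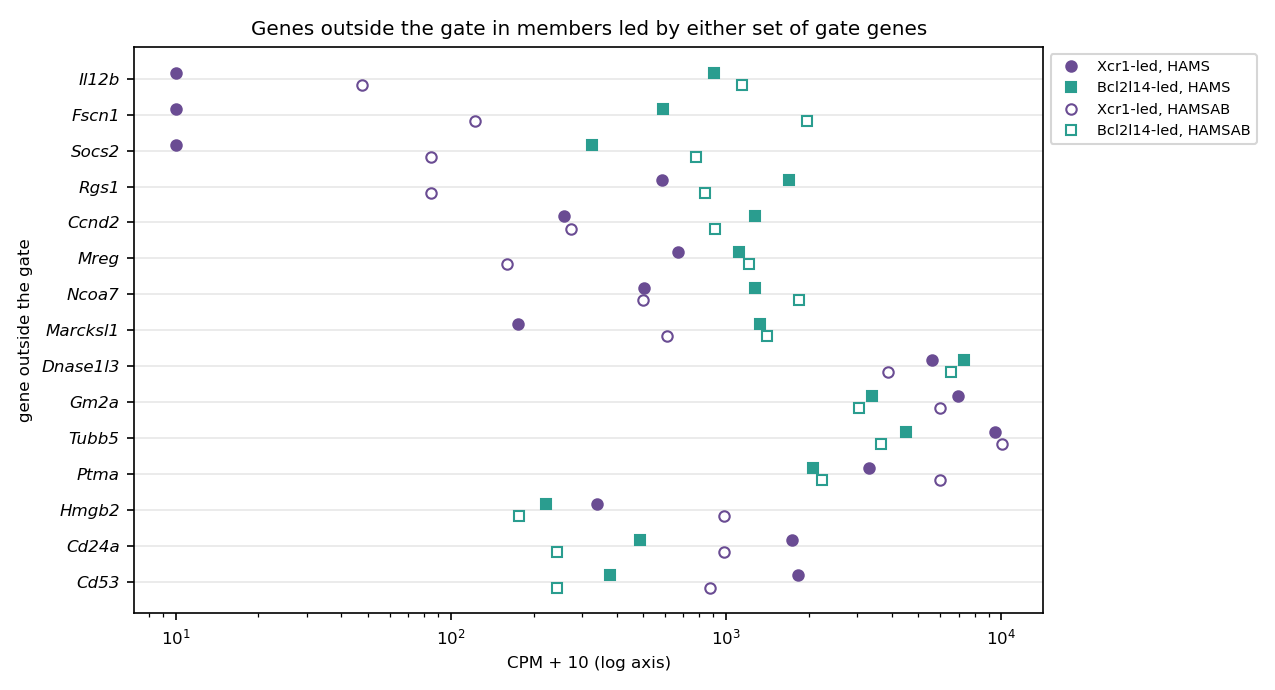
CPM plus 10 (log axis) of genes outside the gate in Xcr1-led (circles) and Bcl2l14-led (squares) cells, filled for HAMS and open for HAMSAB; a point at 10 has no UMI. The genes were picked for their difference. Il12b, Fscn1 and Socs2 lie far right in the Bcl2l14-led cells, and Cd53 and Cd24a in the Xcr1-led cells.

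Il12b was found mostly on the Bcl2l14 side, and Xcr1 is one of the genes that define the other side. Their promoters are printed for that reason, as the 250 bases before the start site from RefSeq (GRCm38.p6). The Il12b stretch is chr11:44399813-44400062 on the plus strand and the Xcr1 stretch is chr9:123862030-123862279 on the minus strand. Capitals mark letters of the kappa B site known in this promoter.

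Il12b: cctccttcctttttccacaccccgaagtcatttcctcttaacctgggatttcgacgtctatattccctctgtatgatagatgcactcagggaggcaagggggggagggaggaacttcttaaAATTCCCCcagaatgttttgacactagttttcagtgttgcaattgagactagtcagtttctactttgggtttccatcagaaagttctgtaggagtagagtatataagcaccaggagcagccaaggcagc

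Xcr1: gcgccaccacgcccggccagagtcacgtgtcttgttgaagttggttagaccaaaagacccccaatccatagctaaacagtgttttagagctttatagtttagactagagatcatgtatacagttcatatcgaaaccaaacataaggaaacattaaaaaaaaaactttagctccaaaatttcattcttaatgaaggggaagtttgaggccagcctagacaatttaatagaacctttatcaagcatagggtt

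A set of 4 motifs was searched on both strands. The letters AATTCCCC, chosen with the Il12b sequence in view, occur once in Il12b and in 0.734% of 32851 promoters of this length. The core of the interferon response element (2.98% of promoters), the ETS-IRF composite element (2.30%) and the AP-1 site TGANTCA (6.75%) occur in neither sequence, and none of the 4 occurs in Clec9a. A match is only a description of letters.

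Between the diets, the members were 0.621% of kept cells in HAMS (interval 0.406 to 0.909) and 1.25% in HAMSAB (0.953 to 1.62), a ratio of 2.02 (1.25 to 3.34). Of the cells that passed every step before the gene sums they were 2.59% and 3.87%, a ratio of 1.49 (0.924 to 2.47). The Ptgs2 Nlrp3 group had ratios of 1.97 (1.60 to 2.44) and 1.46 (1.18 to 1.80) on the same denominators, and the Il1r2 Ifitm1 group 1.15 (0.995 to 1.33) and 0.850 (0.736 to 0.983). C1q macrophages, gated on at least 3 C1q UMIs, had a ratio of 1.01 against all kept cells (0.776 to 1.30). Thinned to 500 UMIs, 12 HAMS and 20 HAMSAB cells still met the gate, a ratio of 1.47 (0.682 to 3.29). The HAMSAB share was higher on each denominator. The interval excluded 1 against all kept cells, where the share of cells removed by the hormone step also differed. It included 1 on the narrower denominator, after thinning, and with a gene sum of at least 3 (ratio 1.76).

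Within the members, 10 of 206 genes with at least 50 UMIs were at least 2-fold apart between the diets (4.85%), 5 higher (2.43%) and 5 lower (2.43%) in HAMSAB. Without the ductal-marked cells it was 9 of 179 (5.03%), 5 higher (2.79%) and 4 lower (2.23%). Of the 24 genes named by their interval, Egr1 and Actb changed sign and H3f3b went from 0.68 to 0.28 when those cells were left out. Hnrnpa3 then passed 2-fold, from 0.99 to 1.02, and Efhd2 fell under it.

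Higher in HAMSAB by the largest ratios were Egr1, Eif5a, Fscn1 and Wnk1. Eif5a, a translation factor, had 11 UMIs in HAMS and 64 in HAMSAB, a log2 ratio of 1.59 (0.65 to 2.66). A single cell held 20% of the Eif5a UMIs. Fscn1 had 12 and 63, a ratio of 1.44 (0.53 to 2.47). Similar shares of cells held Fscn1, 19.2% of HAMS and 22.4% of HAMSAB members, and a single cell held 17.3% of its UMIs. The kinase gene Wnk1 had 19 and 98, a ratio of 1.41 (0.69 to 2.21). In the Ptgs2 Nlrp3 group the Fscn1 ratio was -1.53 (-2.09 to -0.97), so the members and that group differed in sign. In the Il1r2 Ifitm1 group the Fscn1 ratio was 0.05 (-0.31 to 0.42). Kdm6b, a histone demethylase, had 97 and 350 UMIs, a ratio of 0.90 (0.57 to 1.24). Hnrnpa1, Hnrnpa3, Ptges3, Ptma, Eif4a1 and H3f3b were higher by 0.60 to 0.99. Egr1, an immediate early factor, had a ratio of 1.88 (0.86 to 3.07) over all members and -1.45 (-3.72 to 0.62) without the ductal-marked cells.

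Lower in HAMSAB were Cbfa2t3, a transcriptional corepressor, with 42 and 34 UMIs and a log2 ratio of -1.26 (-1.95 to -0.57), and Rgs1, a regulator of G protein signalling, with 40 and 34 UMIs and a ratio of -1.19 (-1.89 to -0.49). The ferritin light chain gene Ftl1 had a ratio of -1.18, and Cd53 and Efhd2 each had -1.12; without the ductal-marked cells Efhd2 stood at -0.93. Ratios under 2-fold were -0.36 (-0.53 to -0.18) for Cd74, -0.44 (-0.80 to -0.08) for H2-Aa, -0.62 (-1.14 to -0.09) for H2-D1 and -0.46 (-0.79 to -0.13) for the cystatin gene Cst3, while H2-Ab1 stood at 0.13 (-0.24 to 0.52) and H2-Eb1 at 0.11 (-0.33 to 0.56). Cd74 and H2-Aa are gate genes. Dnase1l3 had a ratio of -0.35, Picalm -0.76 and Actb -0.08 (-0.11 to -0.05). Without the ductal-marked cells Actb stood at 0.02 (-0.01 to 0.05).

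**Figure D4:**
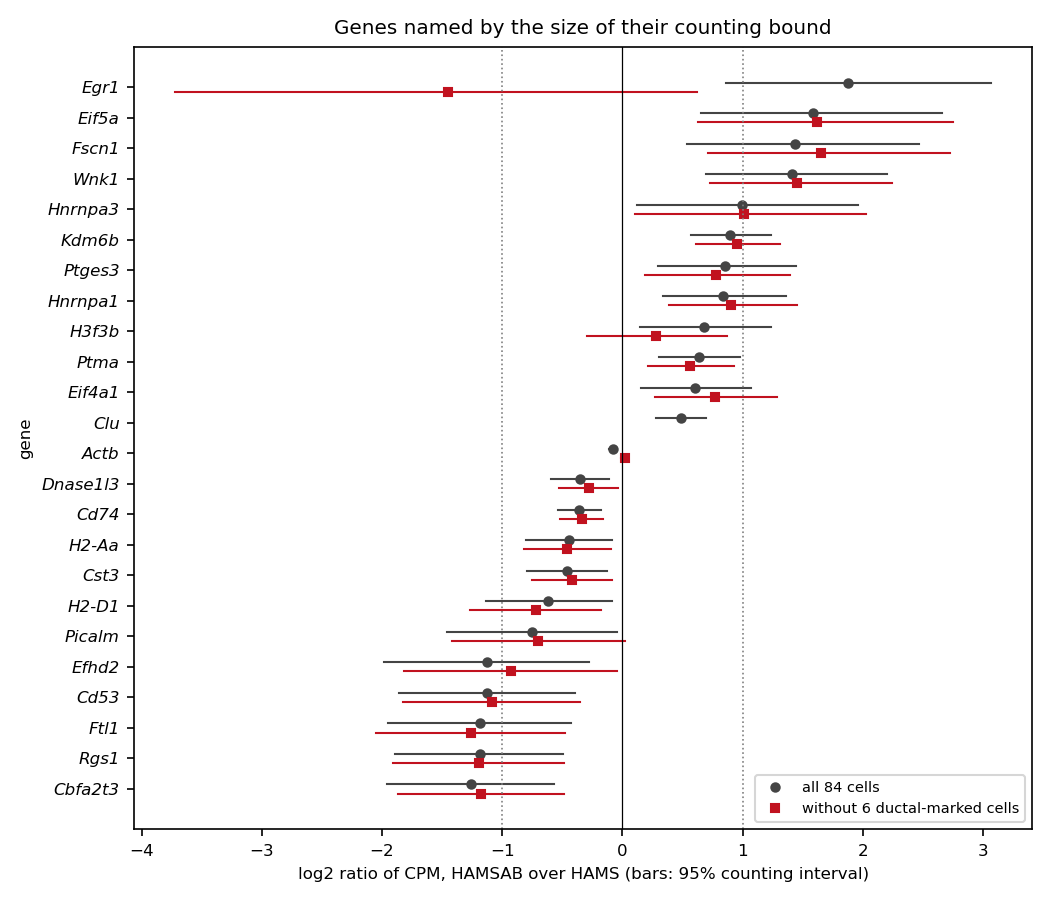
Log2 ratio of CPM, HAMSAB over HAMS, for the 24 genes with the largest counting bounds, with 95% counting intervals, for all 84 cells (dark circles) and without the 6 ductal-marked cells (red squares). Egr1 changes sign, from 1.88 to -1.45, and Clu has no ratio without those cells, since it falls to 3 UMIs.

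Il12b had 17 UMIs in HAMS and 39 in HAMSAB, a log2 ratio of 0.24 (-0.61 to 1.16), and was found in 2 and 11 cells. All but 1 of the HAMS UMIs came from a single cell, so this ratio is not informative. The 6 genes of the first sum are constrained by the gate in both libraries, and their ratios are a description. Xcr1 stood at -0.05 (-0.81 to 0.75), Rab7b at -0.03, Serpinb6b at 0.01, Clec9a at 0.37, Bcl2l14 at -0.49 and Ly75 at 0.77 (-0.29 to 1.96). Without the ductal-marked cells Xcr1 stood at 0.0006 and Rab7b at 0.02.

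By function, the lists below count genes with at least 20 UMIs in the members. Over all 616 such genes 89 were at least 2-fold apart (14.4%), 52 higher (8.44%) and 37 lower (6.01%), with a median log2 ratio of 0.05. Of 8 cDC1 genes outside the gate, 7 were lower and 1 higher in HAMSAB, none by 2-fold, with a median of -0.47. Without the ductal-marked cells the median was -0.49 and Cadm1 passed 2-fold, at -1.11. Of 7 mature dendritic cell genes 6 were higher, Fscn1 and Socs2 by over 2-fold, with a median of 0.23. Socs2 had 6 and 39 UMIs, a ratio of 1.75 (0.50 to 3.28), and 1.25 without the ductal-marked cells. Class II and class I presentation genes had medians of 0.01 and -0.04 (-0.03 and -0.07 without the ductal-marked cells). The median of 7 interferon response genes was -0.16, and -0.49 over the 5 still measured without those cells. Bcl2l1, the survival protein BCL-XL, had 2 and 19 UMIs, a ratio of 2.29 (0.24 to 5.44), and fell under 20 UMIs without the ductal-marked cells (ratio 2.22), so that no apoptosis and survival gene was then counted as higher. Bcl2l11 had 13 and 10, a ratio of -1.33 (-2.68 to -0.03). Cxcl1 and Cxcl2 were read only in HAMSAB, with 30 and 21 UMIs, but had no ratio without the ductal-marked cells. A list of 24 genes held histone deacetylases and receptors and transporters of short-chain fatty acids, which the HAMSAB diet supplies. It also held Ahr, the aryl hydrocarbon receptor, which is none of these. Of the 24, 9 were detected, with 19 and 39 UMIs in all. Only Ahr reached 20 UMIs, with a ratio of -0.37 (-1.41 to 0.72).

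The authors' deposited table for conventional dendritic cells lists 58 genes, 35 higher and 23 lower in HAMSAB. By the table's own adjusted p-values most of the 58 are not significant, and Cst3 is among those that are not. These p-values come from 1 library per diet, where no test between the diets is possible. Of its largest rises, Rasgef1b was 0.79 in the authors' deposited table and Egr3 0.68, as log2 fold changes. In the members Rasgef1b had 9 and 40 UMIs, a ratio with an interval of 0.13 to 2.43, and Egr3 4 and 29, a ratio of 1.90 (0.39 to 3.87). Malat1 was 0.59 in the authors' deposited table and 0.02 (-0.11 to 0.15) in the members. Without the ductal-marked cells it was -0.08 (-0.21 to 0.06). Among its falls, Il21r was -0.65 and Mreg -0.42 in the authors' deposited table. In the members they were -0.22 (-1.50 to 1.16) and -0.55 (-1.26 to 0.17). Nup98 and Wapl, each -0.58 in that table, were -0.08 (-0.65 to 0.50) and 0.05 (-1.26 to 1.48) in the members. Ptafr was -0.55 in that table and -0.71 (-1.99 to 0.59) in the members. Btg2 was -0.47 in that table and 0.05 (-0.71 to 0.84) in the members, and -0.11 without the ductal-marked cells. Cst3 was 0.23 in the authors' deposited table and -0.46 in the members. That table covers a population of all conventional dendritic cells, drawn from the same libraries, so it is no separate evidence.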

How the data were processed

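Islet cells of 1 HAMS and 1 HAMSAB library were profiled by droplet 3' RNA sequencing. The authors deposited raw UMI counts, written by cellranger 5.0.0 per the file headers. Per the submitters' processing notes the builds were mm10 and GRCm38, with Seurat among the tools; settings for calling cells are not given in the sources. The authors' deposited comparison table gives log2 fold changes and p-values per gene, and only its fold changes were compared with the members.

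The members and gene lists were chosen with earlier results of these data known. Raw counts were summed over cells in each library and scaled by the total of the class (CPM). Log2 ratios have exact conditional binomial 95% intervals, CPM exact Poisson and shares exact Clopper-Pearson intervals. Genes needed 50 UMIs (20 for lists), and apart means at least 2-fold. Named are the 12 highest and 12 lowest genes between the diets and the 15 highest and 10 lowest against the other dendritic cells, by the interval bound nearest 0, without ribosomal, mitochondrial, immunoglobulin and unnamed genes and those under 0.1 of the level in other cell types; up to 4 each way of a list and up to 6 each way of the authors' table could be named, and further genes were chosen after their values were seen.

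Several choices were made after results were seen. These are the removal of ductal-marked cells, the division of the members, CPM without Actb, the limits for the T, B, C1q, Siglech and beta cell classes (2, 2, 3 and 2 UMIs and 20% insulin UMIs), and the treatment of a count of 0. A 0 first entered as 0.5 counts, then as 3 counts, and is now a bound at 3 counts, with no ratio where the bound crosses 0 or both counts are at most 3. No doublet caller was run, so doublets remain. The calculation was tested on simulated data that held counting error alone. That test cannot judge the intervals of genes whose UMIs gather in a few cells. Python 3.11.15, numpy 2.4.6, scipy 1.17.1, pandas 2.3.3 and matplotlib 3.10.9 were used.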

Additional observations from a re-analysis of the deposited data

How the results depend on the processing

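No paired analysis was possible because each diet has 1 library, and no replicate could be left out. The share ratio stayed above 1 in the alternatives run, from 1.35 (at least 500 genes per cell, interval 0.676 to 2.79) to 2.10, and its interval included 1 with a sum of at least 3 (1.76), at 500 genes, among cells passing the steps before the sums, and thinned to 500 UMIs. Genes apart between the diets numbered 10, but 0 after thinning, 89 from 20 UMIs, 328 from 10 UMIs and 37 at 1.5-fold. Genes apart from the other dendritic cells numbered 253, but 107 at 500 genes per cell, 56 after thinning, 381 from 10 UMIs, 577 at 1.5-fold and 407 (41 higher, 366 lower) with 0.5 counts for a count of 0, the handling used first; the later change to 3 counts lowered this to 253. List genes 2-fold apart numbered 18, but 9 with a sum of at least 3, 3 after thinning and 2 from 50 UMIs. Fewer cells, UMIs or genes enter several of these, and other causes were not tested. Among named ratios of at least 2-fold, the sign turned for Egr1 without ductal-marked cells (-1.45), for Clu against the other dendritic cells (HAMS thinned -2.73, HAMSAB with a sum of at least 3 -6.20, HAMSAB without ductal-marked cells -0.80) and for Tm4sf4 (HAMSAB, sum of at least 3, -1.59). Of smaller values, Actb went from -0.08 to 0.02 and the class II median from 0.01 to -0.03 without ductal-marked cells. The settings without ductal-marked cells, without Actb and with the 2 earlier treatments of a count of 0 were added after seeing the data. Most genes have under 1 UMI per cell, so depth limits all values.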
